A study of Mus musculus with 6 samples.

Results

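The nuclear lamina genes described here are Lmna, Lmnb1, Lmnb2, Lbr, Emd, Tmpo, Sun1, Sun2, Banf1 and Zmpste24, taken by gene symbol from a table of 17912 genes, and all 10 were found in it. Poly(A) RNA was measured by sequencing in 3 shEXOSC2 libraries, labelled as clones 5, 6 and 7 with the genotype EXOSC2_KD, and in 3 control libraries, labelled as replicates 1, 2 and 3 with the genotype WT. The cell type label of all 6 is embryonic stem cell (ESC), the pluripotent cell grown from the early mouse embryo. The name shEXOSC2 stands for a short hairpin RNA against Exosc2, whose protein belongs to the RNA exosome, a machine that trims and degrades RNA. Whether the controls carried a hairpin, how the hairpin was expressed, and whether clones and controls come from 1 parental line or from separate cultures is not given in the labels. The p-values therefore measure only the spread between these libraries, which may be technical, and other differences between clones and controls cannot be told apart from the knockdown.

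The nuclear lamina is a mesh of intermediate filaments under the inner nuclear membrane. Its filaments are built from A-type lamins (lamin A and lamin C, both from Lmna) and B-type lamins (from Lmnb1 and Lmnb2), and membrane proteins such as the lamin B receptor, emerin and LAP2 anchor it to the membrane and to chromatin. B-type lamins are made by nearly all cells, while A-type lamins are known to be low in embryonic stem cells and higher in most differentiated tissues. The lamin B receptor and lamin A/C are known as alternative tethers that hold heterochromatin at the nuclear edge.

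Lmna rose and Lmnb1 fell. In the shEXOSC2 clones Lmna was 8.75-fold higher than in the controls, and Zmpste24, the protease that matures lamin A, was 3.89-fold higher. Lmnb1 stood at 17.9% and Lbr at 22.6% of the control level. The other lamin B gene, Lmnb2, and the genes for emerin, LAP2 and SUN1 did not pass the test. Of the 10 genes 3 rose, 3 fell and 4 did not pass, against 35.2% of all 15179 tested genes called higher and 38.3% called lower, so calls as such were no more frequent among the lamina genes than in the table. The groups did not overlap for these 6 genes, as for 77.3% of tested genes, and calls in either direction made up 73.5% of tested genes. The median log2 fold change over the 10 genes was 0.00, and that of all tested genes was -0.07.

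**Figure D1:**
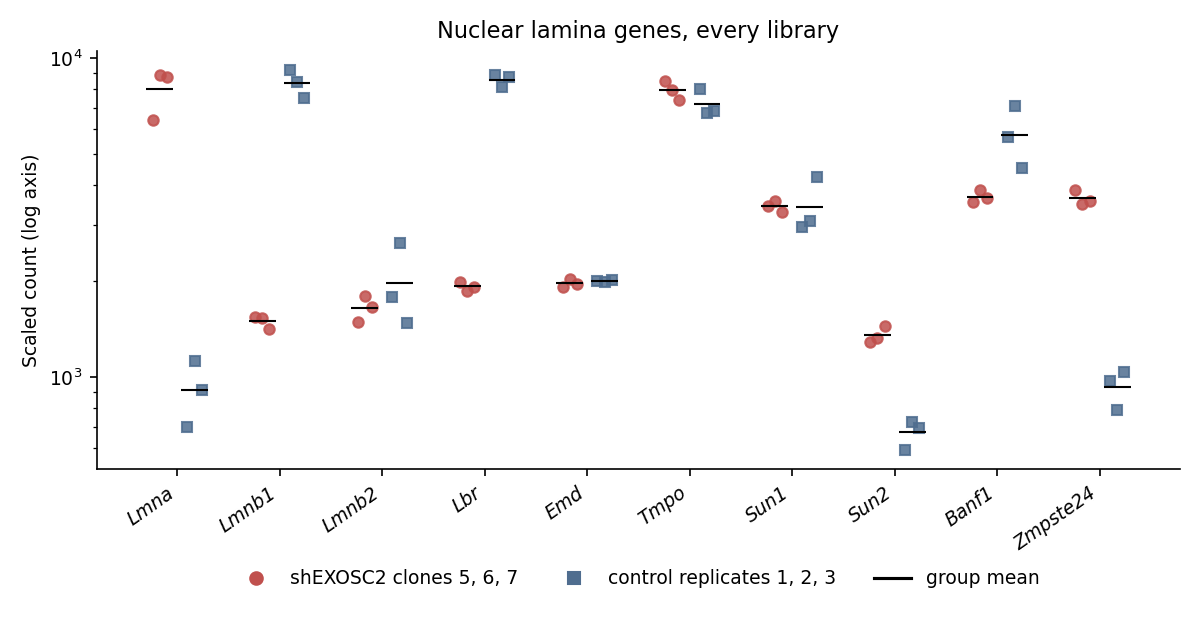
Scaled count of each nuclear lamina gene on a log axis, with a point for every library (shEXOSC2 clones as circles, controls as squares) and a line at each group mean. The clones lie above the controls for Lmna, Sun2 and Zmpste24, below them for Lmnb1, Lbr and Banf1, and among them for the other 4 genes.

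Reads counted over the genes of the deposited table numbered 24268430 to 26494985 in the clones and 21107761 to 24633836 in the controls. Levels are read counts that the authors scaled for library size, with the SD over n = 3 libraries a group. Fold changes are clones over controls of log2(scaled count + 1), given ± SE. Exosc2 itself, on chromosome 2, had scaled counts of 1138, 997 and 981 in clones 5, 6 and 7, against 2457, 2473 and 1954 in control replicates 1, 2 and 3, a log2 fold change of -1.14 ± 0.13 with an adjusted p of 5.1e-05 in limma. An exact two-sided permutation test of Exosc2 had p = 0.1, below which this design cannot go. Most markers of the cell type label were lower in the clones. Of 12 ESC markers 10 fell, with Zfp42 and Utf1 at 0 reads in all clones. Nanog measured 0.67 ± 0.58 in the clones and 9698 ± 366 in the controls. Others that fell kept more reads, such as Sox2 (2805 ± 787 in the clones and 11834 ± 2168 in the controls). Sall4 measured 478 ± 127 in the clones and 5382 ± 550 in the controls. Pou5f1 (91114 ± 2227 in the clones and 21045 ± 4721 in the controls) and Klf4 rose. The 12 markers summed to 103878 to 114205 in the clones and 113814 to 134114 in the controls. Pou5f1 alone made up most of this sum in every clone, but not in any control. Of 10 tested fibroblast and feeder-cell markers 8 rose and 2 fell, with sums of 67939 to 88482 in the clones and 46411 to 70957 in the controls. Vim, which rose, measured 27647 ± 2113 in the clones and 4053 ± 387 in the controls. Fn1 and Thy1 fell, with log2 fold changes of -1.06 ± 0.21 and -0.93 ± 0.16. Fn1 measured 22285 ± 3965 in the clones and 47206.5 ± 12965.5 in the controls. Lum was too low to be tested, at 4.56 ± 2.25 in the clones and 2.29 ± 1.38 in the controls. Of 8 surface epithelium markers 4 rose, among them Krt6a at 3657 ± 636 in the clones and 0 reads in all controls. The 4 that fell were Cdh1 (982 ± 257 in the clones and 15794 ± 3163 in the controls), Epcam, Krt18 and Krt17, with Krt17 at 0 in all clones. The 8 summed to 11973 to 15947 in the clones and 22880 to 35053 in the controls. The higher call of Krt14 was lost with edgeR (adjusted p = 0.052), with DESeq2 (0.13) and without control replicate 1 (0.058) or 2 (0.051). Of 5 tested primitive endoderm markers 2 rose, Dab2 (1589 ± 362 in the clones and 236 ± 21.8 in the controls) and Pdgfra, also a listed fibroblast marker. The 2 that fell were Gata4 (0.34 ± 0.59 in the clones and 92.0 ± 15.1 in the controls) and Sox7 (3.18 ± 2.26 in the clones and 31.4 ± 4.07 in the controls). The whole list summed to 1869 to 2336 in the clones and 426 to 674 in the controls, with Sox17 at 0 in all clones. Of 5 tested trophoblast markers 1 rose and 4 fell, with sums of 1009 to 1261 in the clones and 3812 to 4318 in the controls and Cdx2 at 0 in all clones. Without control replicate 1 or control replicate 2, 0 of them were called higher. Gata3 then had log2 fold changes of 1.31 (limma adjusted p = 0.062) and 1.52 (limma adjusted p = 0.055). A filter at a mean of 50 took Gata4 and Sox7 out of the test, so 0 primitive endoderm markers were called lower. Beside these marker counts, 35.2% of all tested genes were called higher and 38.3% lower. The part of these cell states in the results below was not tested. In bulk RNA, a smaller share of cells of a type cannot be told apart from less RNA per cell.

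Promoter windows of Lmna, Zmpste24 and Lbr are shown because the first pair of genes rose together while Lbr fell. They are RefSeq windows of 300 bases in GRCm38.p6, the assembly of the mm10 build that the submitters name, from 250 bases before to 50 bases from the annotated start on. Of the 10 genes 9 matched the RefSeq table, with 14 starts in all, and Lmna had 2. Counts per gene do not tell which start was used, and neither Lmna window lies at the outer end of the gene in GENCODE, 88509956. Capitals mark matches, on either strand, to the CCAAT box (CCAAT), the GC box (GGGCGG), the AP-1 motif (TGANTCA), the cell cycle homology region or CHR (TTTGAA) and an E2F motif (TTTNNCGC).
Lmna, start 88493312, chr3:88493263-88493562, minus strand: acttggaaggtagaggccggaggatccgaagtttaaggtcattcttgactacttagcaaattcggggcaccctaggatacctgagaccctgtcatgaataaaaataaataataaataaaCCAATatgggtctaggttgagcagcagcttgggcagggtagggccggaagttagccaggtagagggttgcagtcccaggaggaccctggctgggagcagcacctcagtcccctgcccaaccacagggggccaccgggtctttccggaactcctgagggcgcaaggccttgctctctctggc
Lmna, start 88503352, chr3:88503303-88503602, minus strand: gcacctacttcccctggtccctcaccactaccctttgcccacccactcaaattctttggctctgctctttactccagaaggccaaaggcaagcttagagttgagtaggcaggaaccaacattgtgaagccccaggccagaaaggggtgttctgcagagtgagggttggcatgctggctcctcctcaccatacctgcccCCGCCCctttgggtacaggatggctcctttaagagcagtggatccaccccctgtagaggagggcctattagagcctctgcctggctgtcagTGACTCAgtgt
Zmpste24, start 121098210, chr4:121098161-121098460, minus strand: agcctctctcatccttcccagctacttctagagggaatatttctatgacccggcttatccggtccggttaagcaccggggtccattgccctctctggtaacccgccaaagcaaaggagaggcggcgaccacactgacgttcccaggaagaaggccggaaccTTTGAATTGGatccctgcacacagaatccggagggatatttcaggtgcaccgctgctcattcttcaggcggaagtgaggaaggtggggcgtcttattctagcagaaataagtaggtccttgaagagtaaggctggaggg
Lbr, start 181842401, chr1:181842352-181842651, minus strand: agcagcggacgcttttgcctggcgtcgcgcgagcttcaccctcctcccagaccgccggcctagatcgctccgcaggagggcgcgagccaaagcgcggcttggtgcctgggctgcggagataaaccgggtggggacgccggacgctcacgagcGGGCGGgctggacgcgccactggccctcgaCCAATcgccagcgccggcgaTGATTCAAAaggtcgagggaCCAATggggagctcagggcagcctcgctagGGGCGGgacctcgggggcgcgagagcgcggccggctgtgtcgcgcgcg

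Positions give the first base of a match, with the annotated start as 1. The first Lmna window held a CCAAT match at -131 and none of the other motifs, and the second held a GC box at -52 and an AP-1 match at 40. The Zmpste24 window held a CHR match at -89 that shares a base with a CCAAT match at -84. The Lbr window held CCAAT matches at -68 and -28, GC boxes at -98 and 3, and an AP-1 match at -48 that overlaps a CHR match at -45. Among 32851 RefSeq windows of the same length, 37.4% held CCAAT, 35.7% a GC box, 7.81% AP-1, 17.9% CHR and 5.17% the E2F letters. The CpG dinucleotide, observed over expected from base composition, was 0.32 and 0.04 in the Lmna windows, 0.60 in the Zmpste24 window and 1.09 in the Lbr window, against a median of 0.38 over all windows. Among the windows not shown, Sun2 (one start, at 79742536) had 1.02, and the E2F letters were in a window of Tmpo, at -195 and -187 of its start at 91170550, and in a window of Banf1, at -81 of its start at 5366876. These matches describe the letters and were not tested as binding sites.

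Lmna, which encodes lamin A and lamin C (ENSMUSG00000028063.15, chromosome 3, positions 88480147 to 88509956, minus strand, GENCODE M21 on GRCm38), had scaled counts of 6393, 8826 and 8752 in clones 5, 6 and 7, against 699, 1126 and 914 in control replicates 1, 2 and 3. Every clone lay above every control, and clone 5 was the lowest of the clones. The log2 fold change was 3.14 ± 0.19 (95% interval 2.70 to 3.58), with an adjusted p of 1.2e-06 in limma. Of the tested genes, 728 (4.80%) had a higher fold change. The deposited counts are per gene, so lamin A and lamin C transcripts were not separated.

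Lmnb1, the gene of lamin B1 (ENSMUSG00000024590.8, chromosome 18, positions 56707813 to 56753424, plus strand), fell. It had scaled counts of 1543, 1539 and 1421 in clones 5, 6 and 7, against 9197, 8442 and 7520 in the controls 1, 2 and 3. The clones lay close together and far under the lowest control. The log2 fold change was -2.48 ± 0.11 (95% interval -2.72 to -2.23, limma adjusted p = 1.9e-07), and 2004 tested genes (13.2%) fell further.

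Lmnb2, the gene of lamin B2 (chromosome 10, positions 80901203 to 80918245), did not pass the test. Its scaled counts were 1486, 1793 and 1661 in the clones and 1781, 2641 and 1482 in the controls, so the groups overlapped and control replicate 2 stood highest. This gave -0.22 ± 0.20 on the log2 scale, with a 95% interval of -0.67 to 0.24 (limma adjusted p = 0.34), and it was 0.01 without control replicate 2.

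The balance of lamins within a library was described without a test. The ratio of Lmna to Lmnb1 scaled counts was 4.14, 5.73 and 6.16 in clones 5, 6 and 7, against 0.08, 0.13 and 0.12 in controls 1, 2 and 3. On the log2 scale it averaged 2.40 ± 0.30 in the clones and -3.22 ± 0.43 in the controls, a difference of 5.62. Against Lmnb1 and Lmnb2 together, the log2 ratio of Lmna was 1.33 ± 0.22 in the clones and -3.52 ± 0.39 in the controls, a difference of 4.85. Gene length drops out of the comparison between libraries for Lmna over Lmnb1, but not for the ratio to the sum. With each gene per kilobase of annotated exon, that log2 ratio was 0.60 ± 0.24 in the clones and -4.42 ± 0.40 in the controls, a difference of 5.02.

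Scaled per kilobase of annotated exon, Lmna made up 60.3 ± 3.98% of the signal of the 3 lamin genes in the clones and 4.57 ± 1.11% in the controls. Lmnb1 made up 22.7 ± 3.38% in the clones and 82.2 ± 3.86% in the controls, and Lmnb2 17.04 ± 0.64% in the clones and 13.2 ± 3.14% in the controls. The summed lamin signal was 1963, 2450 and 2366 scaled counts per kilobase in clones 5, 6 and 7, against 3640, 3659 and 3041 in controls 1, 2 and 3. The groups did not overlap in this sum. The shares and the sum depend on the length used. With the longest protein-coding transcript of each gene, the Lmna share was 71.5 ± 3.33% in the clones and 7.66 ± 1.79% in the controls. Mean levels per kilobase of Lmna, Lmnb1 and Lmnb2 were then 2532, 528 and 466 in the clones and 289, 2950 and 557 in the controls. With that length the summed signals of clones and controls overlapped.

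**Figure D2:**
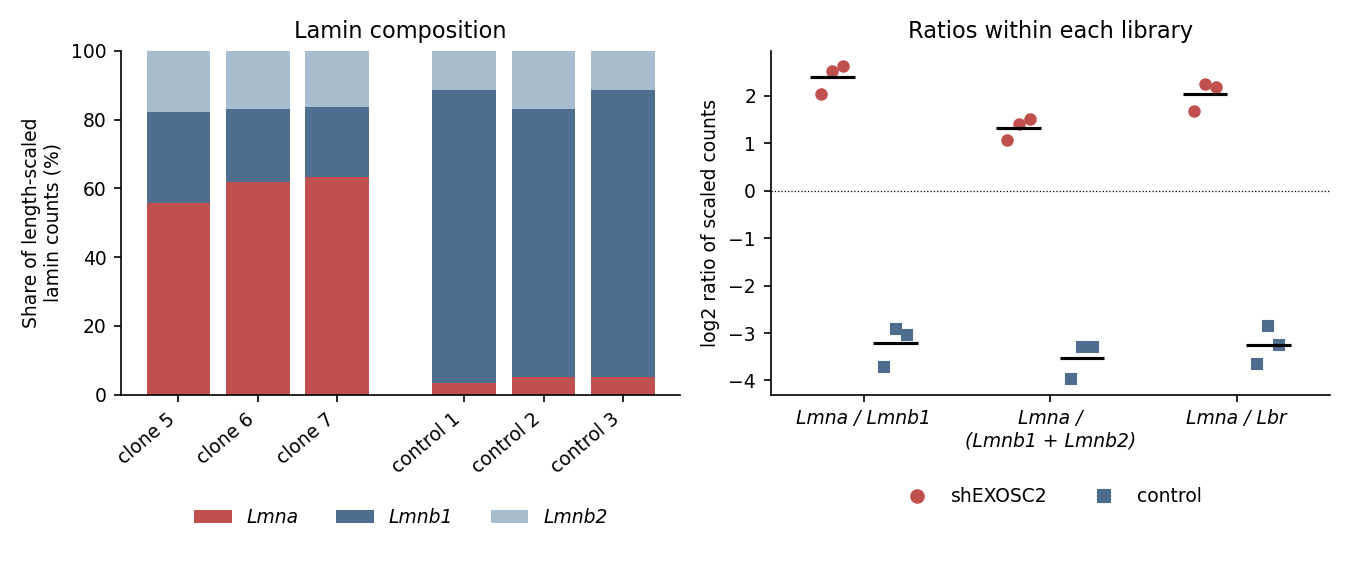
Left, share of the length-scaled scaled counts of Lmna, Lmnb1 and Lmnb2 in each library, in percent, clones left of controls. Right, log2 ratio of Lmna to Lmnb1, to Lmnb1 and Lmnb2 together, and to Lbr, with a point per library and a line at each group mean. Lmna is the largest share in every clone and the smallest in every control, and all 3 ratios are above 0 in the clones and below 0 in the controls.

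Zmpste24, the zinc metalloprotease that cuts the farnesylated tail from prelamin A (chromosome 4, positions 121059237 to 121098241), rose. It had scaled counts of 3877, 3486 and 3559 in clones 5, 6 and 7, against 976, 790 and 1039 in controls 1, 2 and 3. The clones all exceeded the controls by a wide margin. The log2 fold change was 1.97 ± 0.13 (95% interval 1.68 to 2.26, limma adjusted p = 1.6e-06). The list for the processing of CAAX tails held 6 genes. Against 35.2% of all tested genes called higher and 38.3% lower, 2 of them rose, 3 fell and Rce1 did not pass (median -0.23). One of those that fell, Narf, encodes a protein that binds prelamin A and is not a processing enzyme (-0.77 ± 0.18 on the log2 scale). Icmt, which methylates the processed tail, had a log2 fold change of 1.20 ± 0.11 (2373 ± 124 in the clones and 1033 ± 83.7 in the controls). Fnta and Fntb, the subunits of the farnesyltransferase that adds the lipid, fell, with log2 fold changes of -0.78 ± 0.11 and -0.86 ± 0.14. Fnta lies on chromosome 8, whose genes had a median of -0.49, and with chromosome centring its value was -0.30 (limma adjusted p = 0.033). Without clone 5, 1 of the 6 was called higher.

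Lbr encodes the lamin B receptor, an inner membrane protein that also has sterol reductase activity (chromosome 1, positions 181815335 to 181843046). Its scaled counts were 1997, 1867 and 1923 in clones 5, 6 and 7, against 8825, 8128 and 8702 in controls 1, 2 and 3. Both groups were tight and lay far apart, with a log2 fold change of -2.15 ± 0.09 (95% interval -2.36 to -1.94, limma adjusted p = 1.7e-07). The ratio of Lmna to Lbr, the pair of chromatin tethers, was 3.20, 4.73 and 4.55 in the clones, against 0.08, 0.14 and 0.11 in the controls, and the log2 ratios differed by 5.29.

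Lbr lies on a chromosome that was lower as a whole. The median log2 fold change of the 930 tested genes of chromosome 1 was -0.60, the lowest of all chromosomes. With each chromosome's median shift taken out of each library, Lbr had a log2 fold change of -1.56 (limma adjusted p = 6.5e-07). The medians for the chromosomes of Lmna, Lmnb1 and Zmpste24 were -0.19, -0.15 and -0.29, and their centred log2 fold changes were 3.32, -2.33 and 2.25. Whether chromosome copy number differed between the groups was not tested.

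Emd, the gene of emerin, a LEM-domain protein that binds lamins (chromosome X, positions 74254687 to 74261548), did not pass the test. It had scaled counts of 1926, 2031 and 1964 in the clones and 1997, 1992 and 2024 in the controls. The groups overlapped, and the log2 fold change of -0.02 ± 0.09 had a 95% interval of -0.23 to 0.19 (limma adjusted p = 0.83). Under quantile normalization it was -0.22 with an adjusted p of 0.049, just past the threshold. An annotated pseudogene on the same strand, Gm14686, covers 13.6% of its exon bases.

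Tmpo encodes the LAP2 proteins, LEM-domain partners of lamins and chromatin (chromosome 10, positions 91147571 to 91181315). It measured 8473, 7950 and 7398 in the clones and 8010, 6716 and 6842 in the controls, and control replicate 1 lay among the clones. On the log2 scale this was 0.15 ± 0.11 (95% interval -0.10 to 0.39, limma adjusted p = 0.25). LAP2 isoforms were not separated by these counts.

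Banf1 encodes barrier-to-autointegration factor, the small DNA-binding protein that LEM-domain proteins hold on to (chromosome 19, positions 5364638 to 5367168). It had scaled counts of 3541, 3873 and 3636 in clones 5, 6 and 7, against 5679, 7086 and 4517 in controls 1, 2 and 3. The clones lay below the lowest control, and the controls spread widely, with a log2 fold change of -0.62 ± 0.16 (95% interval -0.98 to -0.26, limma adjusted p = 0.0061). The genes of chromosome 19 were higher as a whole (median 0.35), and the centred log2 fold change of Banf1 was -1.01. Of the annotated exon bases of Banf1, 28.6% overlap Eif1ad on the opposite strand, which measured 1691 in the clones and 1971 in the controls. No source used here says whether strand was used in counting, so part of the Banf1 count is uncertain.

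Sun1 and Sun2 encode the inner membrane part of the LINC complex, which couples the lamina to the cytoskeleton. Sun2 (chromosome 15, positions 79724070 to 79742536) had scaled counts of 1286, 1329 and 1444 in clones 5, 6 and 7, against 593, 727 and 696 in controls 1, 2 and 3. All clones stood above all controls, with a log2 fold change of 1.01 ± 0.12 (95% interval 0.73 to 1.29, limma adjusted p = 7.9e-05). Sun1 (chromosome 5, positions 139200637 to 139249840) measured 3446, 3570 and 3305 in the clones and 2965, 3086 and 4239 in the controls, where replicate 3 was highest and the clones lay between. Its log2 fold change was 0.02 ± 0.14 (95% interval -0.30 to 0.35, limma adjusted p = 0.89), and the sign turned under TMM scaling, quantile normalization and other alternatives.

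**Figure D3:**
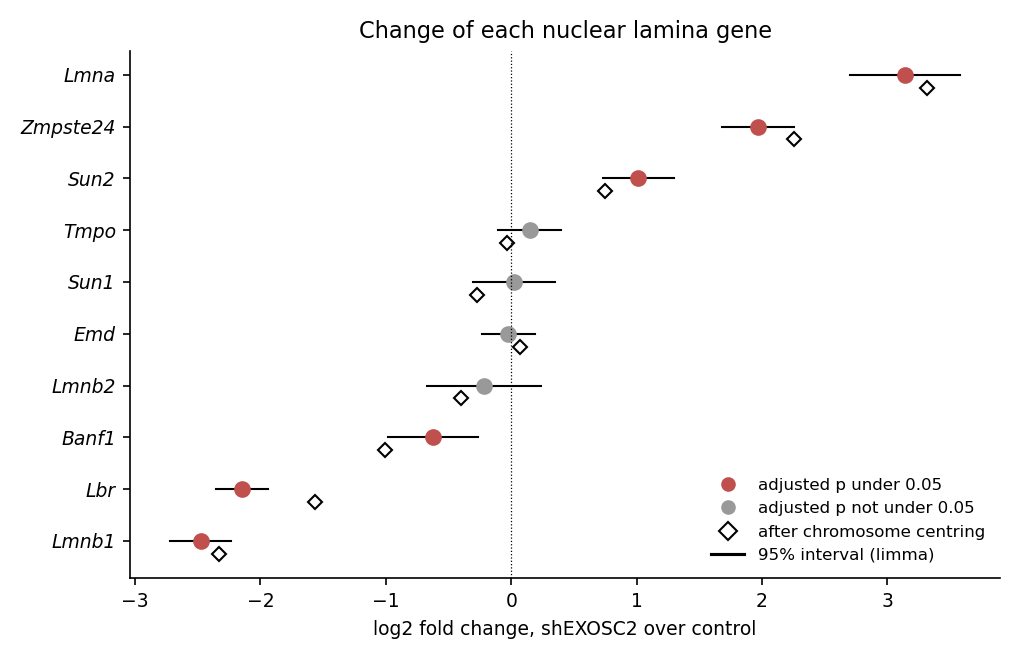
Log2 fold change of each nuclear lamina gene, clones over controls (filled circles, red where the adjusted p is under 0.05 and grey otherwise, with the 95% interval from limma as a line), and the value after chromosome centring (open diamonds). Lmna, Zmpste24 and Sun2 lie right of 0 and Banf1, Lbr and Lmnb1 left of it with either value, while Tmpo, Sun1 and Emd change sign with centring.

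The order of levels within a group was compared per kilobase of annotated exon. In the clones Banf1 led with 2462 ± 114 scaled counts per kilobase, followed by Lmna at 1369 ± 237, Emd at 784 ± 21.2 and Tmpo at 722 ± 48.9. Zmpste24 (509.5 ± 29.1), Lmnb1 (507 ± 23.5), Sun1 (453 ± 17.4), Lbr (405 ± 13.7), Lmnb2 (384 ± 35.9) and Sun2 (249.7 ± 15.01) came after. Neighbours whose means differed by less than the sum of their SDs were Emd and Tmpo, Zmpste24 and Lmnb1, and Lbr and Lmnb2. In the controls the order was Banf1 at 3851 ± 860 per kilobase, Lmnb1 at 2831 ± 284, Lbr at 1796 ± 78.1 and Emd at 796 ± 6.84, then Tmpo at 654 ± 64.9, Lmnb2 at 459 ± 140 and Sun1 at 452 ± 92.5. Lmna at 156 ± 36.6, Zmpste24 at 131 ± 18.1 and Sun2 at 124 ± 12.95 stood last. In that group Banf1 and Lmnb1, Tmpo and Lmnb2, Lmnb2 and Sun1, Lmna and Zmpste24, and Zmpste24 and Sun2 lay within the sum of their SDs. Lmna thus held the second place in the clones and the eighth in the controls, while Lmnb1 held the sixth in the clones and the second in the controls. With the longest protein-coding transcript as length, Lmna kept both places, and Lmnb1 held the eighth in the clones and the second in the controls. Tmpo then stood above Emd, at 2105 and 1237 per kilobase in the clones and 1906 and 1257 in the controls. The places of Lbr in the clones, Lmnb2 in the controls and Sun1 in both groups also moved.

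The spread between libraries differed among the genes. The coefficient of variation in the clones ran from 2.70% for Emd to 17.3% for Lmna, and in the controls from 0.86% for Emd to 30.6% for Lmnb2. In the controls Lmna, Banf1 and Sun1 also varied by 23.4%, 22.3% and 20.5%. Control replicate 2 was the highest control for Lmna, Lmnb2, Sun2 and Banf1, and replicate 3 for Sun1, Emd and Zmpste24.

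Genes whose profile over the 6 libraries lay nearest to that of Lmna were Id1, Eng and Spsb2, at Euclidean distances of 0.16, 0.23 and 0.27 between centred log2 values, among 12403 genes with a mean of at least 50. Id1, which encodes an inhibitor of basic helix-loop-helix factors, measured 3759 ± 654 in the clones and 427 ± 91.8 in the controls. Eng encodes endoglin, a co-receptor of the TGF-beta family, and measured 3969 ± 436 in the clones and 433 ± 80.9 in the controls. Nearest to Lmnb1 were Trim13, Fzd7 and Cdca7, at distances of 0.15, 0.19 and 0.20. Fzd7, a Wnt receptor gene, measured 1573 ± 151 in the clones and 8425 ± 416 in the controls. Cdca7 measured 919 ± 50.6 in the clones and 5251 ± 886 in the controls. These distances are a description over 6 libraries that fall into 2 groups. Spsb2 measured 709.6 ± 123 in the clones and 84.8 ± 11.4 in the controls and Trim13 280.0 ± 12.4 in the clones and 1634 ± 103 in the controls.

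Among the partners of SUN proteins, the genes with the smallest p encode KASH proteins. Of 9 tested LINC and torsin genes 6 were called higher, 2 lower and 1 neither, against 35.2% higher and 38.3% lower over all tested genes. The median log2 fold change was 0.65, against -0.07 over all tested genes. Syne2, the gene of the giant outer membrane protein nesprin-2, had a log2 fold change of 4.55 ± 0.10 (14264 ± 701 in the clones and 608 ± 44.4 in the controls). Syne3, the gene of nesprin-3, which links to intermediate filaments through plectin, had 4.82 ± 0.32 (1716 ± 158 in the clones and 65.3 ± 35.2 in the controls). Ccdc155, the gene of the meiotic KASH5, was near 0 in the clones (0.34 ± 0.59 in the clones and 54.2 ± 15.6 in the controls). Syne4, the gene of nesprin-4, fell (83.4 ± 5.28 in the clones and 429.5 ± 124 in the controls), and Syne1, the gene of nesprin-1, rose (399.7 ± 69.5 in the clones and 181 ± 71.2 in the controls). A filter at a mean of 50 took Ccdc155 out of the test, which left 1 of the list called lower.

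Other inner nuclear membrane genes moved in both directions, with 3 of 11 higher, 5 lower and 3 called neither way (median -0.19). All tested genes had 35.2% called higher and 38.3% lower. Tmem43, which encodes the emerin partner LUMA, rose with a log2 fold change of 2.66 ± 0.15 (6711 ± 107 in the clones and 1078 ± 238 in the controls). Tor1aip1, the gene of LAP1, rose (1436 ± 79.3 in the clones and 681 ± 31.3 in the controls), as did Lemd2, a LEM-domain gene (1110.2 ± 96.6 in the clones and 580.2 ± 104 in the controls). With chromosome centring the log2 fold change of Tor1aip1 was 1.66, against 1.07 without. Tmem194b, the gene now named Nemp2, fell with -2.58 ± 0.16 (265 ± 22.05 in the clones and 1602 ± 288 in the controls). Ankle2, which promotes the return of BAF to chromatin after mitosis, fell with -0.41 ± 0.10. Lemd3 did not pass, at -0.06 ± 0.14. Without control replicate 1, 3 of the list were called lower.

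**Figure D4:**
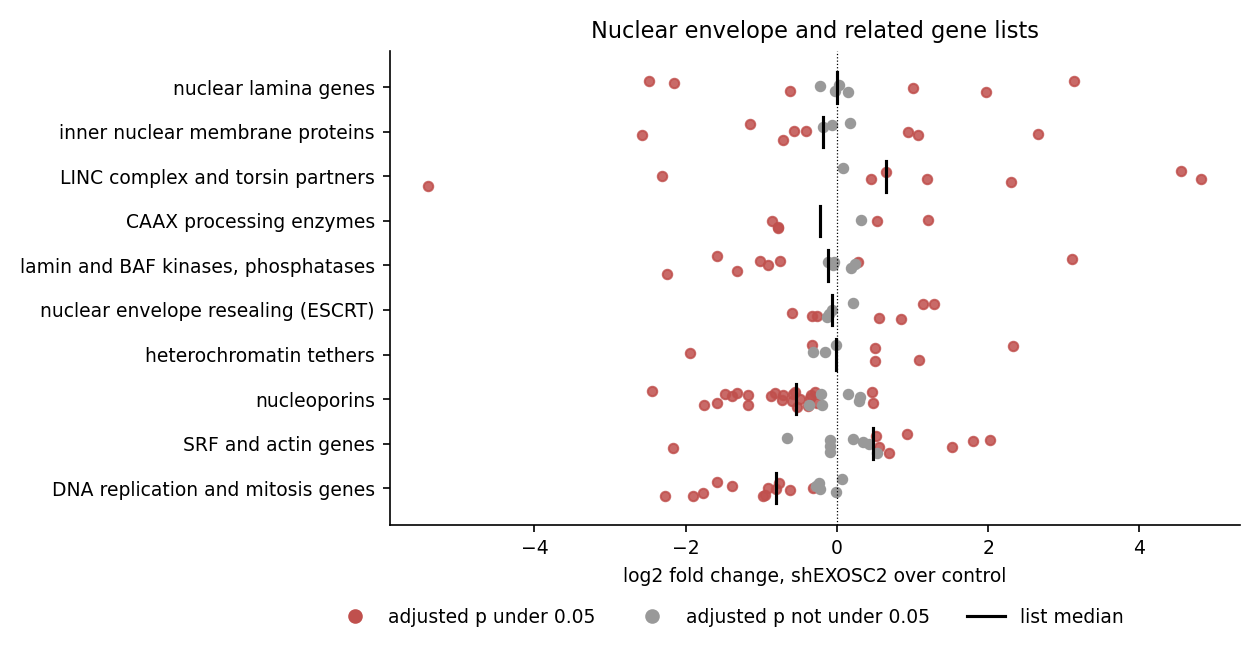
Log2 fold change, clones over controls, of every tested gene in 10 lists, with a point per gene (red where the adjusted p is under 0.05, grey otherwise) and a line at each list's median. The nuclear lamina genes spread from -2.48 to 3.14 around a median of 0.00, the LINC and torsin genes reach furthest on both sides, and nucleoporin and replication genes lie mostly left of 0.

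Nucleoporin genes, which encode the pores that interrupt the lamina, were mostly lower. Of the 30, 22 fell, 2 rose and 6 were called neither way (median -0.54), against 38.3% lower and 35.2% higher over all tested genes. Nup133, a scaffold subunit on chromosome 8, whose genes had a median of -0.49, fell with a log2 fold change of -2.44 ± 0.09 (1105 ± 62.6 in the clones and 5991 ± 179 in the controls). Nup43, of the same subcomplex, fell with -1.76 ± 0.12, and Nup93, an inner ring subunit also on chromosome 8, with -1.38 ± 0.10, or -0.90 with chromosome centring. The nuclear basket genes Tpr and Nup153 fell with -1.18 ± 0.12 and -0.60 ± 0.13, while Pom121, a membrane nucleoporin, rose with 0.47 ± 0.10. With quantile normalization, with chromosome centring, or without clone 5 or clone 6, 1 of the 30 was called higher.

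Of 13 kinases, phosphatases and partners that act on lamins and BAF, 2 were higher, 6 lower and 5 neither. Their median was -0.12, and over all tested genes 35.2% were called higher and 38.3% lower. Prkca, a kinase gene whose product phosphorylates lamin B1, rose with a log2 fold change of 3.11 ± 0.19 (1501 ± 16.7 in the clones and 177 ± 43.6 in the controls). Its relative Prkcb, in the same list, fell with -2.25 ± 0.36 (9.87 ± 4.47 in the clones and 48.7 ± 10.5 in the controls). Vrk1, the kinase gene whose product frees BAF from DNA, fell with -0.91 ± 0.10, and the mitotic cyclin genes Ccnb1 and Ccnb2 fell with -1.59 ± 0.11 and -1.02 ± 0.09. Cdk1, the kinase that disassembles the lamina at mitosis, did not pass, at 4905 ± 295 in the clones and 5318 ± 362 in the controls. The other higher call, Ppp2ca, a phosphatase subunit gene, stood at 0.28 ± 0.11. In place of 2, 1 gene was called higher with TMM scaling, quantile normalization, eBayes without trend, edgeR, DESeq2 or chromosome centring, and without clone 5, clone 6, clone 7 or control replicate 3.

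Among 9 heterochromatin tethers 4 were higher and 2 lower (median -0.01), against 35.2% and 38.3% of all tested genes. Cbx1, an HP1 gene whose product binds the lamin B receptor, fell with a log2 fold change of -1.94 ± 0.15 (2293 ± 105 in the clones and 8941 ± 1823 in the controls). Zbtb7b, a zinc finger gene, rose with 2.32 ± 0.18, and Prr14, the gene of an HP1 and lamin A/C binding tether, with 0.51 ± 0.11. Hdac3 did not pass, at -0.16 ± 0.10. Under quantile normalization 4 were called lower. With eBayes without trend or without clone 5, clone 6, clone 7 or control replicate 1, 1 was called lower.

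Of 11 genes of the ESCRT machinery that reseals the nuclear envelope, 4 were higher and 3 lower. Their median was -0.07, and 35.2% of all tested genes were called higher and 38.3% lower. Chmp3 and Chmp2b, both filament subunits, and Spast, the gene of a microtubule-severing ATPase, rose with log2 fold changes of 1.28 ± 0.10, 1.14 ± 0.13 and 0.85 ± 0.12. Ist1 fell with -0.59 ± 0.11. Chmp7, the adaptor that brings ESCRT to the envelope, fell with -0.26 ± 0.10. The counts moved with the settings. With chromosome centring 8 were called higher and 0 lower, and with quantile normalization 6 were called lower. With eBayes without trend or without clone 5, clone 6 or clone 7, 1 was called lower.

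Actin and SRF genes are a set known to respond to the mechanics of the nucleus. Of 16 such genes 7 were higher and 1 lower (median 0.47), against 35.2% and 38.3% of all tested genes. Flna, the gene of the actin crosslinker filamin A, had a log2 fold change of 1.79 ± 0.12 (36225 ± 1665 in the clones and 10483 ± 1252 in the controls), and Fhl2, a LIM-domain gene, had 2.02 ± 0.24. Cnn1, a smooth muscle gene, fell with -2.16 ± 0.32, and Vcl did not pass, at -0.08 ± 0.12. With chromosome centring 2 were called lower.

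DNA replication and mitosis genes were examined because Lmnb1 is known to fall in senescence, when cells stop dividing for good. Of 17 tested, 12 fell and 5 were called neither way (median -0.80), against 38.3% of all tested genes called lower. The helicase genes Mcm3 and Mcm6, both on chromosome 1, fell with log2 fold changes of -2.28 ± 0.10 and -1.77 ± 0.11. The mitotic checkpoint gene Bub1 fell with -1.59 ± 0.13. Mki67, the gene of the Ki-67 proliferation marker, did not pass, at 9066 ± 1441 in the clones and 8589 ± 1068 in the controls. The part of cell division in the Lmnb1 difference was not tested.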

How the data were processed

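Poly(A) RNA of 6 libraries was sequenced, with 500 ng of total RNA as input, a stranded TruSeq mRNA preparation and 8 cycles of amplification, per the labels' protocols. The deposited values are a signal per gene, read counts scaled for library size, and the submitters' processing notes name the build mm10, DESeq 1.22.1 for R, the counter HTSeq 0.5.3, the aligner STAR 2.5.0a and the trimmer cutadapt 1.6. Their settings and strand use were not stated. Within each library 100% of values were whole multiples of 1 step within 0.001 read, so whole reads were recovered, and the lowest sum over 6 libraries was 15 reads per gene. Groups and replicate numbers come from the sample titles.

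All 15179 genes whose mean reached 10 were fitted together in limma 3.58.1, using trended eBayes and log2 of the value plus 1, with Benjamini-Hochberg adjustment over all of them and a threshold of 0.05, after the script had been tested on simulated counts. On that scale changes of weakly expressed genes come out too small. Alternatives were pseudocounts of 0.5 and 5, no filter or a mean of at least 50, TMM or quantile scaling, chromosome centring, eBayes without trend or robust, leaving out each library, and count models on the recovered reads (DESeq2 1.42.0, and edgeR 4.0.16, which called 5190 genes higher and 5960 lower). Positions and exon lengths are from GENCODE M21, with 17860 of 17912 genes matched by identifier.

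The genes and lists were chosen with earlier results of these data known. The text names all 10 genes, Exosc2, the 3 genes with the smallest p of each list, and the 3 nearest profiles of Lmna and Lmnb1, and other list members named, such as Nup153, Pom121, Tpr, Ankle2, Lemd2, Lemd3, Ppp2ca, Syne1, Syne4, Vrk1, Cdk1, Prr14, Hdac3, Chmp7, Ist1, Rce1, Narf, Vcl and Mki67, were chosen after their values were seen. Of the marker lists a selection is named, and 1 gene that this rule takes is not reported here. Listed genes without a row (Mlip, Sun3, Sun5 and Nup62) are not analysed here, and 3 were matched under older symbols. The software was Python 3.11.15 with matplotlib 3.10.9, scipy 1.17.1, numpy 2.4.6 and pandas 2.3.3, and R 4.3.3.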

Additional observations from a re-analysis of the deposited data

How the results depend on the processing

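No paired analysis was possible because controls are numbered 1 to 3 and clones 5 to 7, so the groups share no replicate number. The 6 lamina genes past the threshold kept their direction and their call in all 17 alternatives each. Their log2 fold changes ranged from 2.96 to 3.32 for Lmna, 1.77 to 2.25 for Zmpste24, 0.75 to 1.07 for Sun2, -1.01 to -0.46 for Banf1, -2.30 to -1.56 for Lbr and -2.64 to -2.33 for Lmnb1, and the highest adjusted p was 0.026, for Banf1 without control replicate 1. Among the 10 genes, signs turned for the 4 that had not passed. Sun1 was -0.0034 with TMM scaling, -0.15 with quantile normalization, -0.019 with edgeR, -0.010 with DESeq2 and -0.27 with chromosome centring, and ranged from -0.073 to 0.19 when single libraries were left out. With chromosome centring Emd was 0.066 and Tmpo -0.037. Lmnb2 ranged from -0.40 to 0.015 when single libraries were left out. Emd passed the threshold with quantile normalization (-0.22, adjusted p = 0.049). The cause of these moves was not tested. The difference in the Lmna share of lamin signal was 55.7 percentage points and became 63.9 with the longest transcript as length, an alternative chosen after seeing the data, as were those for the Lmna to Lbr ratio and for the order of levels. The primitive endoderm gene Gata6 (-0.79, not past the threshold) was 0.30 with quantile normalization, and passed the threshold at -1.09 without control replicate 1 (adjusted p = 0.030). Genes called higher numbered 4763 to 5712 and genes called lower 4465 to 6841 over the alternatives. Among the 10 genes the lowest scaled count in any library was 593, for Sun2 in control replicate 1.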
